A study of Gallus gallus with 2 samples.

Results

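The TADs of GGA1, the largest macrochromosome of the chicken, were examined in the HD3 cell line. Every TAD that the deposited list places on chromosome 1 was taken, which gave 404 of the 2389 TADs in the list. HD3 (LSCC-HD3) is a line of chicken erythroblasts, transformed by an avian erythroblastosis virus whose mutation makes it sensitive to temperature, and the cultures of this dataset form 1 group without a treatment. Hi-C was performed on 2 biological replicates, and the authors pooled the contacts of both, placed on the GalGal5 assembly, to call TADs in bins of 50 kb. The karyotype of the line is heavily rearranged. On GGA1 it involves the segment between 180.58 and 194.26 Mb, which is present on GGA1 itself and, as a further copy, at the end of the long arm of GGA2.

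Hi-C joins fragments of fixed chromatin that are near each other in the nucleus and sequences the junctions, so that the number of junctions between 2 genomic bins serves as their contact frequency. A topologically associating domain (TAD) is a stretch of a chromosome whose parts contact each other more often than they contact the neighbouring sequence. In vertebrates, many TADs arise by loop extrusion, in which cohesin reels in chromatin until it meets an obstacle such as CTCF, and TAD borders limit which enhancers meet which promoters. Chicken chromosomes fall into a few long macrochromosomes and many short, gene-rich microchromosomes, and GGA1 is the longest of the macrochromosomes.

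The list contained coordinates only. TADs were called after pooling, so a TAD has no value per replicate and no replicate error, and no test between groups of samples was possible. The depth behind a TAD is unknown, as contact numbers were not used here. Each border is resolved to 1 bin of 50 kb. TADs of a chromosome are neighbours on 1 map and chromosomes differ in length, so neither is a set of replicates. Values are given as counts, ranks and medians without p-values. The 95% intervals around shares are exact (Clopper-Pearson) and cover the counting of TADs only. A border given as 186.05 Mb lies before base 186050001 of the GalGal5 chromosome.

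The TADs of GGA1 spanned 196.25 Mb, from the first base of the assembled chromosome to the end of the last TAD. The first TAD covered 0 to 0.45 Mb (450 kb) and the last 196.15 to 196.25 Mb (100 kb), so the list reached the start of the chromosome without a free stretch. GGA1 held 16.9% of the TADs of the list, 19.8% of the sequence inside TADs and 19.5% of the summed span of all 26 chromosomes (1006 Mb). Several microchromosomes have no TAD in the list, so ranks are among these 26 only. Its share of TADs was thus below its share of sequence, that is, GGA1 had fewer TADs per length than the list as a whole. All 404 TADs began and ended on bin edges, and none of the 403 neighbouring pairs overlapped.

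**Figure D1:**
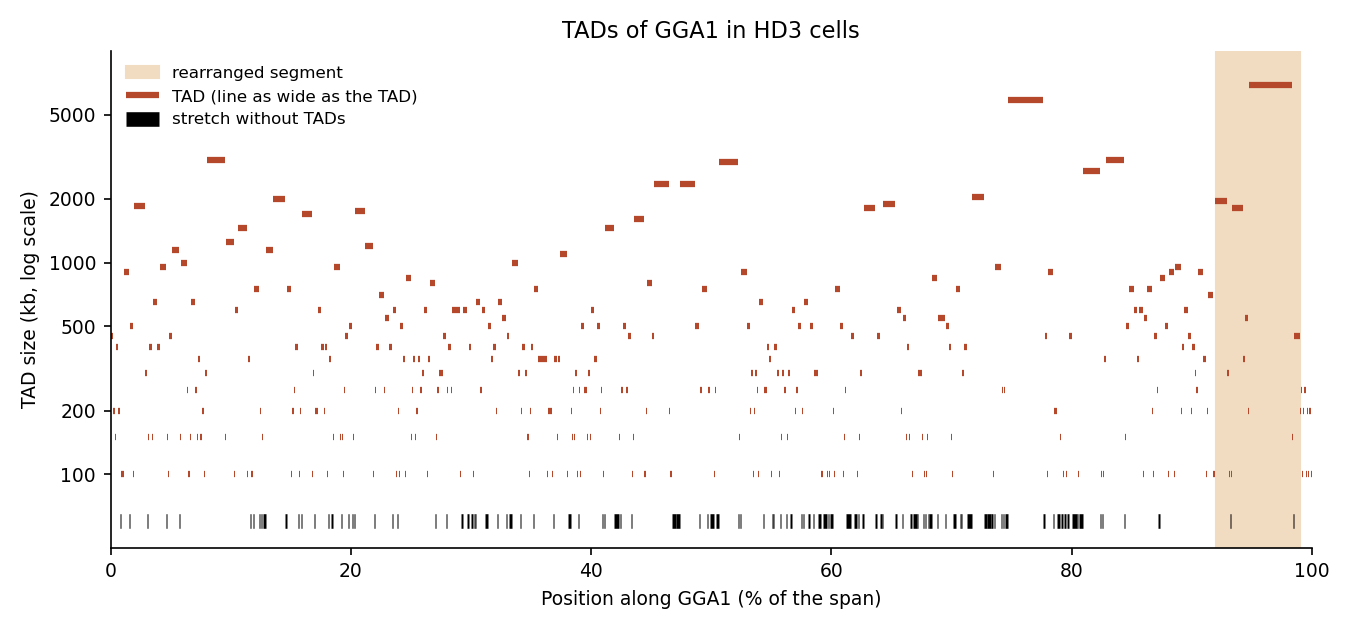
Size of each of the 404 TADs of GGA1 (vertical axis, kb, log scale) against its place on the chromosome (horizontal axis, % of the span of 196.25 Mb). Each red line is as wide as its TAD, black marks at the bottom are the stretches without TADs, and the shaded band is the segment with a copy on GGA2; the longest line, inside the band, is the TAD of 6900 kb, and the marks are dense from about the middle of the chromosome and rare at its end.

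The median TAD of GGA1 had a size of 250 kb, with quartiles at 100 and 450 kb. The mean was 409 kb (SD 618 kb over the 404 TADs), well above the median, since the sizes had a long upper tail that reached 6900 kb. Weighted by length, the median was 600 kb, which means that 50% of the sequence inside TADs lay in TADs of 600 kb or more. Only 39 distinct sizes occurred, because sizes are whole numbers of bins. The median of GGA1 was equalled on 6 of the 25 other chromosomes (GGAZ, GGA24, GGA18, GGA5, GGA3 and GGA2) and was above that of the remaining 19, whose lowest was 125 kb on GGAW. The mean of GGA1 was the highest of all 26 chromosomes, ahead of GGA3 with 390 kb, and the other 25 ranged from 155 kb on GGAW to that value around a middle value of 308 kb. The mean of GGA1 depended on its largest TADs. With the TAD of 6900 kb left out it was 393 kb and still the highest. With both TADs of over 5 Mb left out it was 379 kb, and 2 other chromosomes had a higher mean. The other chromosomes kept all their TADs, so the rank of GGA1 could only stay or fall.

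The upper tail held much of the sequence. TADs of at least 1 Mb numbered 27 on GGA1 (6.68% of its TADs, 95% interval 4.45 to 9.57%), against 5.69% of the whole list and 109 of 1985 on the other chromosomes (5.49%, 4.53 to 6.59%). The intervals overlapped, and GGA2 to GGA5 together had a slightly higher share than GGA1 (64 of 889, 7.20%, 5.59 to 9.10%). By length, these 27 TADs covered 58.4 Mb, which is 29.8% of the span of GGA1 and 35.4% of its sequence inside TADs, against 26.4% of the sequence inside TADs on the other chromosomes. One chromosome, GGA11, had more of its span in large TADs (54.6%), and GGA2 to GGA5, which are the nearest in length to GGA1 among the numbered macrochromosomes, had between 20.4 and 28.1%. Further up the scale the counts lay further apart, though the intervals still overlapped: 10 TADs of GGA1 (2.48%, 1.19 to 4.50%) were at least 2 Mb long, against 24 elsewhere (1.21%, 0.776 to 1.79%). It held 5 TADs of at least 3 Mb, against 7 on the other 25 chromosomes together. It also held 2 of at least 5 Mb, of which the other chromosomes had none. GGA1 thus contributed 4 of the 10 largest and 8 of the 20 largest TADs of the list, and 24.8% of all sequence in TADs of at least 1 Mb. Beside these counts, GGA1 held 16.9% of all TADs of the list and 19.5% of the summed span. When both TADs of over 5 Mb were left out, but their length was kept in the span, the share of its span in large TADs was 23.3%. In that case 6 other chromosomes, which kept all their TADs, had more, so the rank could only stay or fall here too.

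The smallest TADs of the list had a size of 100 kb, or 2 bins. GGA1 had 115 of these (28.5%, 24.1 to 33.1%), against 27.3% of the whole list and 538 on the other chromosomes (27.1%, 25.2 to 29.1%), so the lower end of the distribution was alike. The middle differed. TADs of 150 to 300 kb made up 34.9% (30.3 to 39.8%) of the TADs of GGA1 and 42.5% (40.3 to 44.7%) of those on the other chromosomes, while TADs of 350 to 950 kb made up 29.95% (25.5 to 34.7%) and 24.9% (23.0 to 26.9%). The intervals of the first class did not overlap and those of the second did. On GGA2 to GGA5 the shares of these classes were 36.6 and 27.4%, between those of GGA1 and of all others, so the difference was smaller when GGA1 was set beside chromosomes of its own kind.

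**Figure D2:**
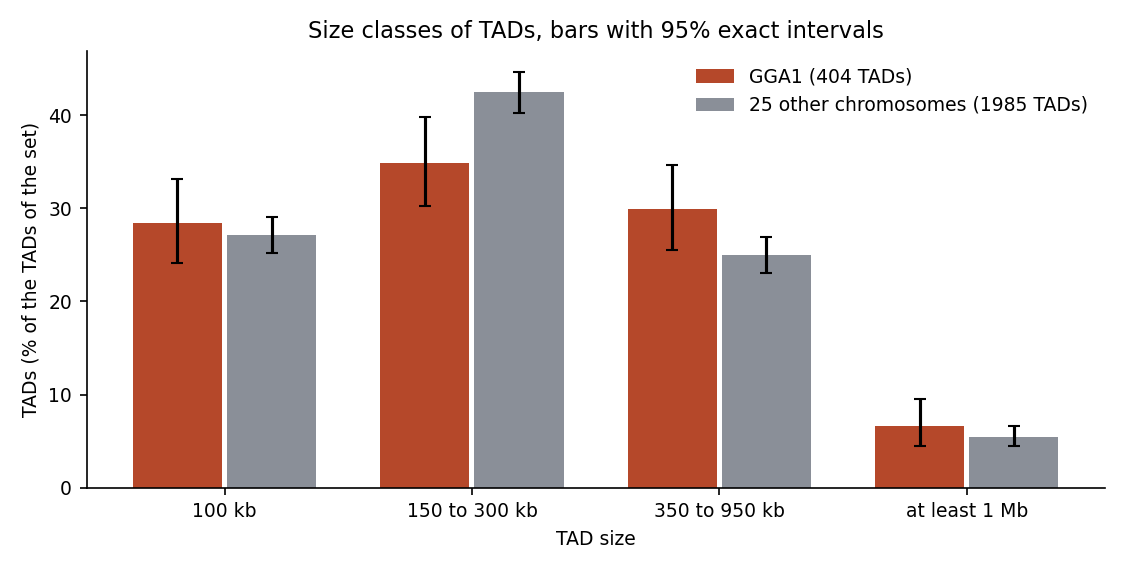
Share of TADs (vertical axis, %) in 4 classes of size (horizontal axis), with GGA1 in red to the left of the 25 other chromosomes in grey. Bars start at 0 and black lines are exact 95% intervals; the class of 150 to 300 kb holds 34.9% on GGA1 and 42.5% on the other chromosomes, and the class of at least 1 Mb holds 6.68% and 5.49%.

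The 10 TADs of at least 2 Mb are given with their surroundings, since the length of GGA1 in large TADs rests on them. They summed to 33.3 Mb, or 17.0% of the span. The largest ran from 186.05 to 192.95 Mb (6900 kb) and lay within the segment with a copy on GGA2. It adjoined a TAD on each side and was part of a run of 8 TADs without free sequence between them. The second covered 146.55 to 152.4 Mb (5850 kb) and adjoined no TAD, with free stretches of 350 kb before it and 200 kb after it. These 2 were the largest of the whole list, and they differed in that one was embedded in a run and the other was isolated.

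A size of 3050 kb occurred in 2 TADs, at 15.7 to 18.75 Mb in a run of 14 and at 162.6 to 165.65 Mb at the end of a run of 3. The TAD at 99.45 to 102.45 Mb (3000 kb) was isolated by free stretches of 500 and 200 kb, and that at 158.95 to 161.65 Mb (2700 kb) by stretches of 800 and 150 kb. Both therefore stood outside any run. A size of 2350 kb was also found in 2 TADs, one at 88.85 to 91.2 Mb inside a run of 11 and one at 93.1 to 95.45 Mb that was isolated by 650 and 100 kb. The last of the 10 were the TAD at 140.7 to 142.75 Mb (2050 kb), isolated by 800 and 400 kb, and the TAD at 26.45 to 28.45 Mb (2000 kb), in a run of 3. Of these 10 TADs, 5 adjoined no TAD and 4 adjoined one on both sides, and the isolated ones all lay between 93.1 and 161.65 Mb.

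The remaining 17 large TADs measured between 1000 and 1950 kb. Large TADs occurred in 14 of the 20 windows of 10 Mb along GGA1, so they were spread along the chromosome and not gathered in one place. In 2 cases the next TAD was also large, namely the pair at 25.3 to 26.45 and 26.45 to 28.45 Mb and the pair at 39.85 to 41.6 and 41.6 to 42.8 Mb. A total of 30 TADs adjoined a large TAD, among them the members of these 2 pairs. Of the 30, 11 had the smallest size of 100 kb, a size that 28.5% of all TADs of GGA1 had. Only 6.68% of the TADs of GGA1 were large, so most neighbours of a large TAD would be smaller in any case. The sizes of adjoining TADs showed no relation by rank. Spearman's rho of a TAD's size with that of the next adjoining TAD was −0.00 over 272 pairs on GGA1. On the 16 other chromosomes with at least 30 such pairs, rho ranged from −0.26 on GGA14 to 0.24 on GGA13, with a middle value of 0.01. Neighbouring pairs share a border, so these correlations are descriptive.

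The arrangement of TADs on GGA1 was more often broken than on most chromosomes. Of its 403 neighbouring pairs, 272 adjoined without a gap (67.5%, 62.7 to 72.0%), against 76.1% of the pairs of the whole list and 1526 of 1960 pairs on the other chromosomes (77.9%, 76.0 to 79.7%). This share was higher on 22 of the 25 other chromosomes, and the intervals of GGA1 and the others did not overlap. Adjoining was unevenly spread along GGA1, as given below, so the separation of these intervals is not a test. GGA2 to GGA5 ranged from 67.8 to 78.7% and together had 632 of 885 pairs (71.4%, 68.3 to 74.4%), an interval that overlapped that of GGA1. Shares close to that of GGA1 were found on GGA2, GGA3 and GGA4 (67.8, 70.5 and 72.4%), so a low share was common to GGA1 to GGA4. The next chromosomes in length, GGAZ and GGA5, had higher shares (89.8 and 78.7%).

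The same was seen from the side of the single TAD. Among the TADs of GGA1 that had a neighbour on both sides, 210 of 402 (52.2%, 47.2 to 57.2%) adjoined both neighbours and 70 (17.4%, 13.8 to 21.5%) adjoined neither. On the other chromosomes, 67.0% (64.9 to 69.1%) adjoined both and 11.8% (10.4 to 13.4%) adjoined neither. GGA2 to GGA5 alone were not counted in this way. The lower share of embedded TADs held in each class of size. It was 50.9% on GGA1 against 59.0% on the other chromosomes for TADs of 100 kb, 56.7% on GGA1 against 72.6% on the others for 150 to 300 kb, and 50.8% on GGA1 against 68.0% on the others for 350 to 950 kb. For TADs of at least 1 Mb it was 40.7% on GGA1 and 58.7% on the others. The intervals of GGA1 and the others were separate in both middle classes. A free stretch counts for the TADs on both of its sides, so these counts depend on each other. They overlapped for TADs of 100 kb (41.3 to 60.4% on GGA1, 54.6 to 63.3% on the others) and for TADs of at least 1 Mb (22.4 to 61.2% on GGA1, where the class had 11 of 27 TADs, and 48.9 to 68.1% on the others).

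Grouped by adjoining, the 404 TADs formed 132 runs, of which 70 (53.0%) consisted of a single TAD, 17 of 2 TADs, 36 of 3 to 9 and 9 of at least 10. A run of GGA1 had on average 3.06 TADs, against 4.32 on the other chromosomes. GGA2 had 308 TADs in 100 runs, GGA3 225 in 67, GGA4 200 in 56 and GGA5 156 in 34. The average of GGA2 was thus close to that of GGA1. Runs of at least 10 TADs held 137 TADs, or 33.9% of the TADs of GGA1, whereas they held 54.0% on the other chromosomes. The share of single-TAD runs was close on the other chromosomes (230 of 459, 50.1%), so the gap lay in the long runs. The TADs that stood alone had a median of 150 kb but a mean of 520 kb on GGA1, against a mean of 298 kb elsewhere, because several of the largest TADs of GGA1 were among them.

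The longest run by number of TADs stretched from 171.45 to 182.9 Mb, with 28 TADs in 11.45 Mb and a median of 275 kb. Its largest member, the TAD of 1950 kb at 180.45 to 182.4 Mb, lay near its end. The second longest run covered 46.95 to 53 Mb with 19 TADs, none of them above 850 kb. The third lay at the very end of the chromosome, from 193.35 to 196.25 Mb, with 15 TADs of at most 450 kb in 2.9 Mb. Runs of 14 TADs were found at 14.6 to 22.75 Mb, where 3 of them were large, and at 165.75 to 171.2 Mb, where the largest was 750 kb. Runs of similar number thus differed in length from 2.9 to 8.15 Mb. Longer than most was also the run from 183.05 to 193.2 Mb, which had 8 TADs in 10.15 Mb, 2 of them large. The run of 28 TADs was exceeded in number on 5 of the 25 other chromosomes, and its length of 11.45 Mb on 3. The highest values were those of GGAZ, with 42 TADs and 15.75 Mb.

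TADs of 100 kb fell into 91 sets of consecutive adjoining ones, and 74 of these sets had a single TAD and 14 had 2. Of all TADs of GGA1 28.5% had this size, and 67.5% of neighbouring pairs adjoined. Most sets would therefore be short in any case. The longest row had 5 TADs of 100 kb, from 1.65 to 2.15 Mb. Rows of 4 occurred from 91.4 to 91.8 Mb and from 180.05 to 180.45 Mb. The last of these rows ends where the TAD of 1950 kb begins, which lies across the start of the rearranged segment.

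Inside TADs lay 165.1 Mb of GGA1, or 84.1% of its span. This was an ordinary value, with 13 of the other chromosomes above it and 12 below, in a range from 59.6% on GGAW to 95.5% on GGA17 around a middle value of 86.0%. Among the longest chromosomes, it was above the values of GGA2, GGA3 and GGA4 (77.2, 78.9 and 78.0%) and below those of GGA5 and GGAZ (86.0 and 89.3%). The remaining 31.15 Mb of GGA1 was divided into 131 free stretches, of which 128 were at least 100 kb long. Their median was 150 kb, the same as on the other chromosomes, and their mean was 238 kb, against 320 kb on the other chromosomes. Gaps of 2 bins were the commonest, with 49 of 131 on GGA1 (37.4%, 29.1 to 46.3%) and 143 of 434 on the other chromosomes (32.9%). Gaps of 1 bin, the smallest possible, were rare, with 3 on GGA1 and 15 on the other chromosomes.

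GGA1 differed from GGA2 to GGA5 and GGAZ in having no free stretch of at least 1 Mb. Its longest had 800 kb, against 24 stretches of at least 1 Mb on 11 of the 25 other chromosomes. Of the 9 chromosomes from GGA2 to GGA10, 5 had such a stretch. The longest stretches of GGA2 to GGA5 measured between 1100 and 2150 kb, and that of GGAZ 5100 kb. GGA1 was nevertheless not the lowest, since 12 chromosomes had a longer longest stretch and the other 13 did not, down to 200 kb on GGA21. Per length, GGA1 had 6.52 stretches of at least 100 kb per 10 Mb, with 4 chromosomes higher and a middle value of 5.51 over the others. GGA2 to GGA5 ranged from 5.51 to 6.35, so GGA1 was only slightly above the highest of them. The stretches of GGA1 were thus about as frequent as on GGA2, and none of them reached 1 Mb. Stretches of at least 500 kb numbered 17 on GGA1 and 18 on GGA2.

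**Figure D3:**
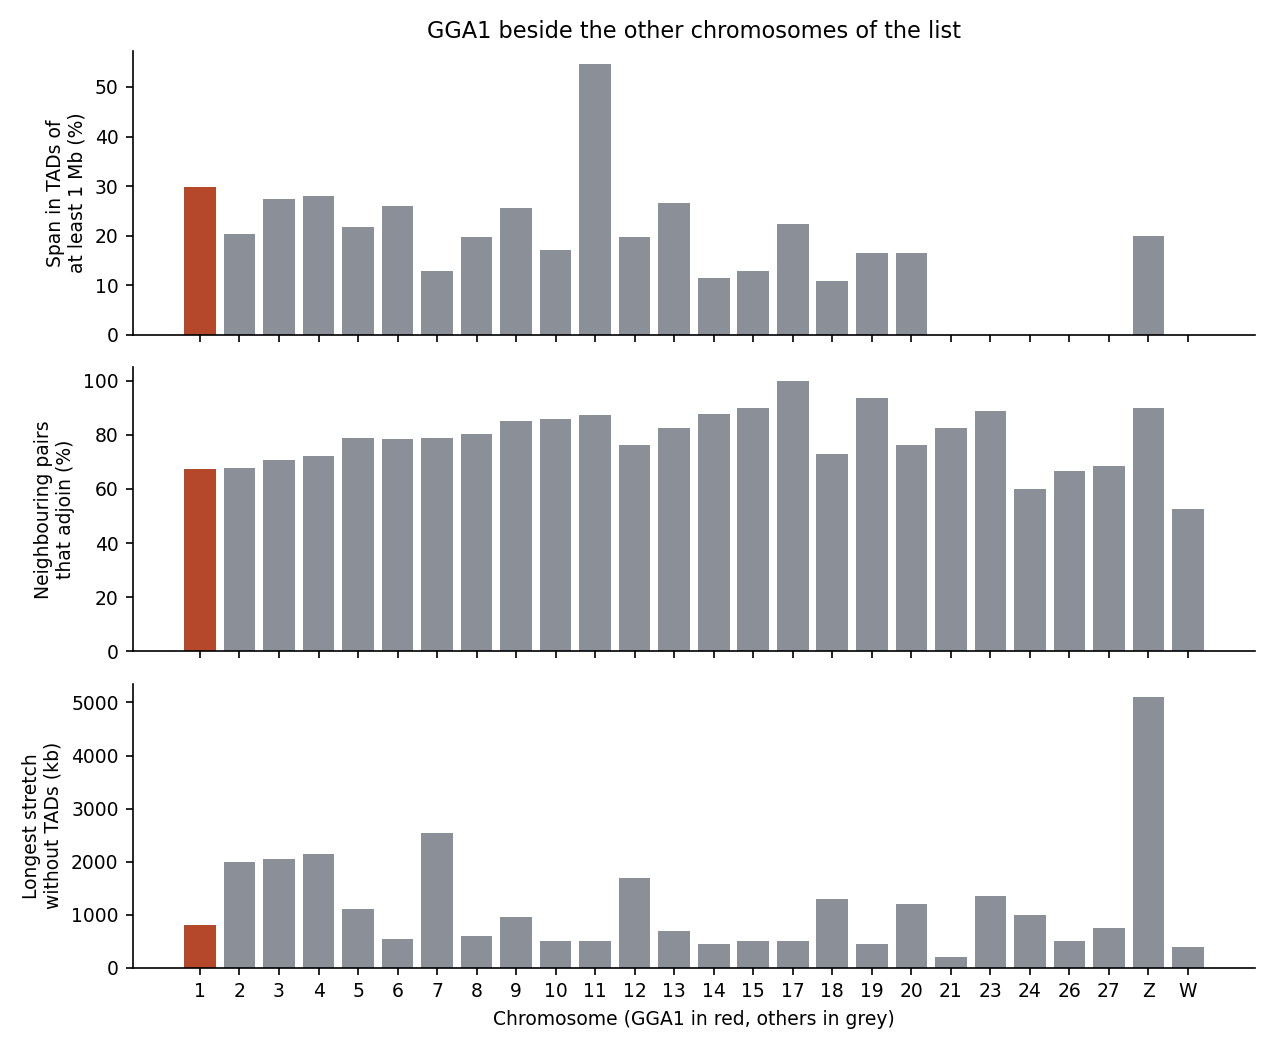
Measures for GGA1 (red, first bar) and the 25 other chromosomes of the list (grey): the share of the span in TADs of at least 1 Mb (top, %), the share of neighbouring pairs that adjoin (middle, %) and the longest stretch without TADs (bottom, kb). GGA1 stands at 29.8%, 67.5% and 800 kb, second to GGA11 in the top panel, among the lowest in the middle panel and below GGA2 to GGA5 in the bottom panel; chromosomes without a bar in the top panel had no TAD of at least 1 Mb.

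The 2 longest free stretches of GGA1, of 800 kb each, lay at 139.9 to 140.7 Mb, between TADs of 400 and 2050 kb, and at 158.15 to 158.95 Mb, between TADs of 100 and 2700 kb. Both thus ended at a TAD of at least 2 Mb. Stretches of 750 kb followed at 82.25 to 83 Mb, after a TAD of 1450 kb, at 120.2 to 120.95 Mb, between TADs of 250 and 450 kb, and at 157.1 to 157.85 Mb, between TADs of 450 and 100 kb. Of the 17 stretches of at least 500 kb (13.0% of all, 7.74 to 19.96%, against 17.1%, 13.6 to 20.9%, on the other chromosomes), 5 touched a large TAD. The TADs beside these long stretches measured from 100 to 3000 kb. Over the whole chromosome, 31 of the 54 sides of large TADs adjoined a TAD and so touched no free stretch. The share of all free stretches that touch a large TAD was not computed, so no preference is read from the 5.

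Free sequence was unevenly spread along the chromosome. In windows of 10 Mb, the share inside TADs was 82.5% or more in each of the first 9 windows, then lay between 65 and 89.5% in the next 7, and was at least 95% in the last 4. The lowest value, 65%, was shared by the windows from 110 and from 150 Mb, and the highest, 98.5%, by the windows from 10 and from 180 Mb. For comparison, the 19 full windows of GGA1 had a median of 86%, and the 70 full windows on 19 other chromosomes had a median of 88.25% and ran from 20 to 100%. The windows of GGA1 thus stayed within the spread seen elsewhere, and none was as empty as the emptiest of the other chromosomes.

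The share of adjoining pairs showed the same order more sharply. It was between 61.5 and 90.5% in the first 9 windows, and between 0 and 65.2% in the next 7. In the last 4 it was between 76.9 and 96%. In the window from 140 to 150 Mb none of the 7 neighbouring pairs adjoined, and that window also had the fewest TADs (8), whereas the lowest value in the 70 windows of other chromosomes was 10%. That window therefore lay below all full windows elsewhere, as a description and not as a test.

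**Figure D4:**
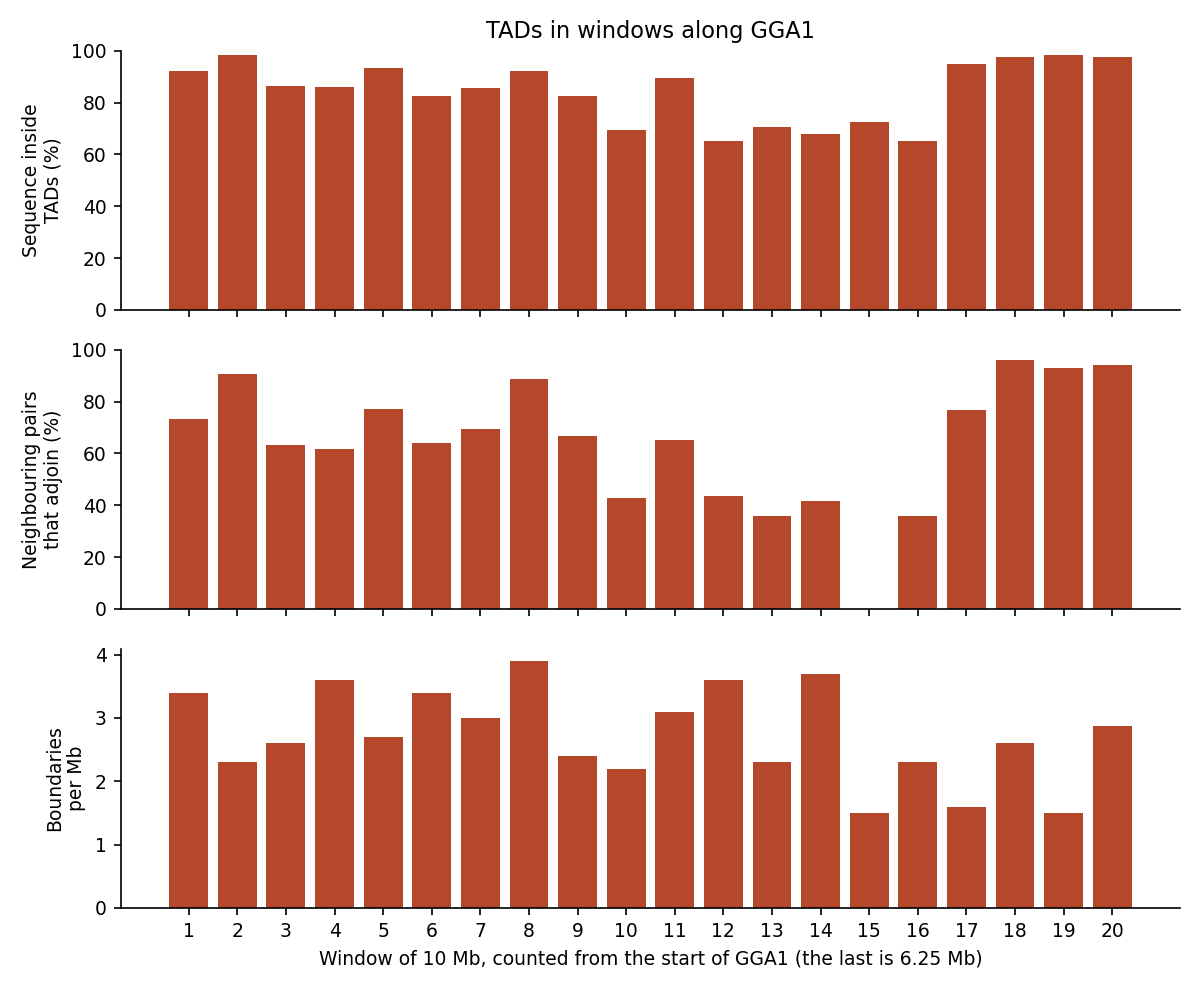
Share of sequence inside TADs (top, %), share of neighbouring pairs that adjoin (middle, %) and boundaries per Mb (bottom) in 20 consecutive windows of GGA1 (horizontal axis; 10 Mb each, the last one shorter). Windows 10 and 12 to 16 are the lowest in the top and middle panels, down to 65% and 0%, windows 17 to 20 are at or above 95% and 76.9%, and the boundaries in the bottom panel vary between 1.5 and 3.9 per Mb without that order.

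GGA1 was also split at 80 and 160 Mb, limits chosen after the values had been seen. The middle part had 80 of the 196.25 Mb, and it includes the window from 80 Mb, counted above with the first 9. This middle part held 74 of the 131 free stretches and 69.8% of the free length (21.75 Mb). The part before 80 Mb held 51 stretches and 26.8% (8.35 Mb), and the part after 160 Mb held 6 and 3.37% (1.05 Mb). Accordingly, 46.0% of neighbouring pairs adjoined in the middle part (63 of 137), against 74.1% before it (146 of 197) and 91.3% after it (63 of 69). Of the 17 stretches of at least 500 kb, 15 began in the middle part. The break in the arrangement was thus largely a matter of the middle of GGA1, and most so from 110 to 160 Mb, where 68.2% of the sequence lay inside TADs and 52 stretches left 15900 kb free. The size of the TADs had no single order over these parts from start to end: the medians were 250, 225 and 200 kb, while the means were 363, 420 and 486 kb and the shares of the length in TADs of at least 1 Mb were 24.6, 29.3 and 42.3%. Each of the parts with the higher means held a TAD of over 5 Mb, and the means of the parts without these TADs were not computed.

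Adjoining also differed between these parts for large TADs, as it did for all TADs. Of the 9 with their centre in the middle part, 6 adjoined no TAD and 1 adjoined a TAD on both sides. Of the 13 before 80 Mb, none was without an adjoining TAD and 7 had one on both sides. Of the 5 after 160 Mb, 1 had none and 3 had both. Of all TADs with their centre in the middle part, 49 of 137 (35.8%) adjoined no TAD, against 19 of 197 (9.64%) before it and 2 of 70 (2.86%) after it. Adjoining no TAD is itself a matter of free stretches, and the middle part was delimited by these, so the counts of isolated large TADs are a description of the same arrangement.

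A boundary was defined as each distinct position where a TAD began or ended, with the chromosome start counted where a TAD began there, as on GGA1. GGA1 had 2.73 boundaries per Mb, which was a low value: 22 of the other chromosomes had more, in a range from 2.62 on GGA3 to 5.77 on GGAW around a middle value of 3.38. Among GGA2 to GGA5, which ranged from 2.62 to 3.17, 2 had more and 2 had fewer. The low value was thus not particular to GGA1. The windows of GGA1 with the fewest boundaries were those from 140 to 150 Mb and from 180 to 190 Mb, with 15 each (1.5 per Mb), and the window with the most was that from 70 to 80 Mb, with 39 (3.9 per Mb) and 35 TADs. The first 2 of these are unlike in the other measures. From 140 to 150 Mb, no pair adjoined and 72.5% of the sequence lay inside TADs, while from 180 to 190 Mb 92.9% of pairs adjoined and 98.5% lay inside TADs. Each of the 2 windows contains part of one of the TADs of over 5 Mb. In the windows of other chromosomes boundaries ran from 1.4 to 4.5 per Mb, so both extremes of GGA1 lay inside that range.

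The end of the long arm was almost entirely filled with TADs. The last 4 runs, from 165.75 to 196.25 Mb, contained 65 TADs in 30.5 Mb, and 98.2% of this sequence lay inside TADs. The 3 stretches between these runs measured 250, 150 and 150 kb. This end was singled out after its values had been seen. It includes the rearranged segment, and also sequence before and after it that was filled in the same way.

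The segment from 180.58 to 194.26 Mb (13.68 Mb) was looked at in detail, since a copy of it lies on another chromosome. Contacts of the copies on GGA1 and on the derivative GGA2 were mapped to the same coordinates, so the list does not separate them, and the part of the extra copy in the values below cannot be told apart from that of the sequence itself. In the segment, 13 TADs lay wholly inside and 15 touched it. Their median was 300 kb for those inside (quartiles 100 and 450 kb), against 250 kb for the 391 other TADs of GGA1, a difference of 1 bin. Of the 13, 4 had 100 kb (30.8%), against 28.4% of the rest. Typical TADs of the segment were thus like those of the rest of the chromosome.

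The segment differed from the rest of GGA1 in the length taken by few large TADs, and mostly by 1 of them. Of its length, 10.52 Mb (76.9%) lay in TADs of at least 1 Mb, against 26.2% of the rest of GGA1, and 97.8% lay in TADs of any size, against 83.1%. It had 16 boundaries, or 1.17 per Mb, against 520 in the rest, or 2.85 per Mb. With the TAD of 6900 kb left out, 3.62 Mb of the segment lay in large TADs, which is 26.5% of its whole length and 53.4% of the 6.78 Mb outside that TAD, and the 16 boundaries came to 2.36 per Mb of those 6.78 Mb. The contrast in boundaries thus rested largely on this TAD. The adjacent stretch of equal length, from 166.9 to 180.58 Mb, was as filled with TADs (98.2%) and had the same median of 300 kb, but it had 37 boundaries (2.70 per Mb) and only 0.95% of its length in large TADs. Between the segment and the end of the chromosome (1.99 Mb), 12 TADs lay wholly inside with a median of 100 kb and a largest of 250 kb, and 7 of them had 100 kb, at 6.53 boundaries per Mb. High filling was therefore shared by the segment and both its sides, and the large TADs and the low number of boundaries were not.

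From its start, the segment began inside the TAD of 1950 kb (180.45 to 182.4 Mb), of which 1820 kb lay in the segment. This TAD was preceded by the row of 4 TADs of 100 kb, which were the only ones wholly inside the last 1 Mb before the segment. After it came TADs of 300, 100 and 100 kb, a free stretch of 150 kb at 182.9 to 183.05 Mb, and TADs of 100 and 1800 kb. The next 3 TADs measured 350, 550 and 200 kb and led up to the TAD of 6900 kb. Behind it followed TADs of 100 and 150 kb, a free stretch of 150 kb at 193.2 to 193.35 Mb, and 2 TADs of 450 kb. A TAD of 200 kb at 194.25 to 194.45 Mb crossed the end, with 10 kb inside the segment. The nearest boundary was 130 kb from the start of the segment and 10 kb from its end, which is below the bin size at the end and above it at the start. Runs of adjoining TADs passed through both ends without a gap, namely the run of 28 TADs at the start and the run of 15 TADs at the end.

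**Figure D5:**
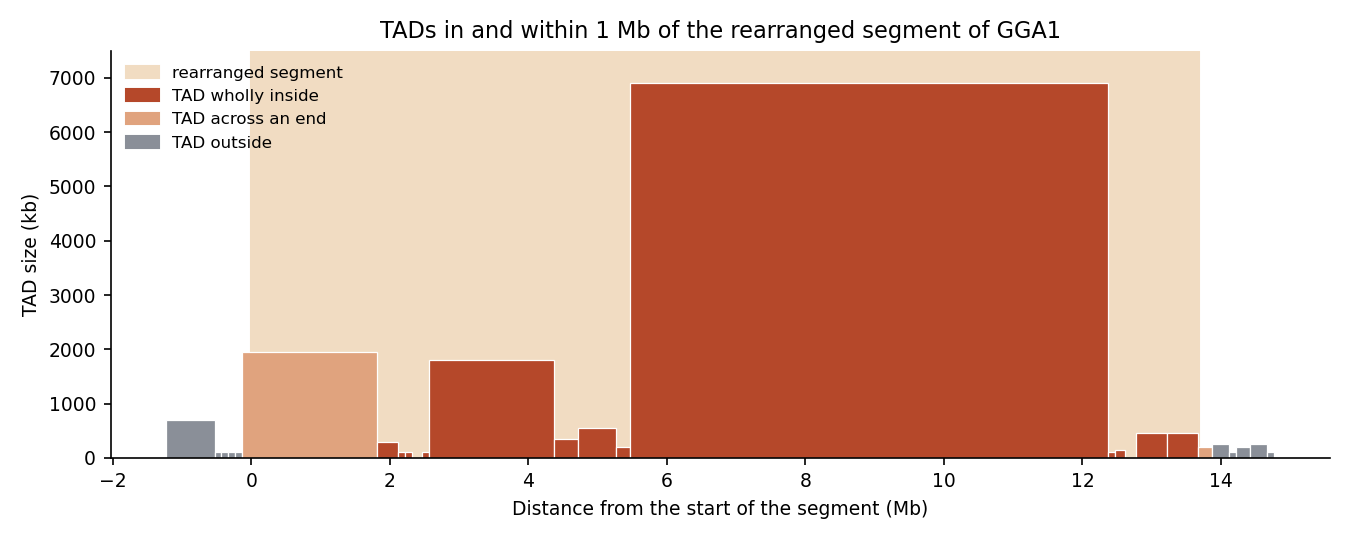
Size of each TAD (vertical axis, kb) against the distance from the start of the rearranged segment (horizontal axis, Mb), each bar as wide as its TAD, for TADs that touch the shaded segment or the 1 Mb on each side. Dark red bars are the 13 TADs wholly inside, light red bars the 2 across its ends (1950 and 200 kb) and grey bars those outside. The TAD of 6900 kb takes up the middle of the picture. The row of 4 TADs of 100 kb stands directly left of the light red bar of 1950 kb, which begins 130 kb before the segment.

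The study also describes a partial deletion in a gene-rich part of GGA1 in this line, which includes the β-globin gene. As errors of the assembly and not of the line, it describes contigs of GGA1 that are misplaced in GalGal5. TADs called on the reference order carry both. The coordinates of neither were at hand, so the TADs that they touch could not be marked. Their part in the values above, those of the segment and its sides included, was not tested. Genes, CTCF sites and compartments along GGA1 were not analysed here.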

How the data were processed

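Hi-C libraries came from 2 biological replicates of HD3 cells, forming 1 group. Reads were aligned by the authors to GalGal5 and filtered with Juicer tools (Juicer 1.6 in the submitters' processing notes), and TADs were called with Armatus on pooled contacts in 50 kb bins. The γ used for each chromosome is not given in the sources used here. The authors deposited the start and end of each TAD, and both pairs of coordinates were equal in all 2389 rows. Size was end plus 1 minus start.

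Sizes, runs (TADs without a gap between neighbours), free stretches, boundaries and windows of 10 Mb were computed with Python 3.11.15, pandas 2.3.3, numpy 2.4.6, scipy 1.17.1 and matplotlib 3.10.9. The code for sizes, runs, gaps, free stretches, boundaries and sequence inside TADs was tested on simulated data. That for windows and shares was not. The span of a chromosome reached from its first base to the end of its last TAD. Regions were named by a rule: TADs of at least 2 Mb, the 5 longest runs, rows of 100 kb TADs and free stretches, the first and last TAD, the windows with the most and fewest boundaries and the surroundings of the rearranged segment. The paired large TADs and the run from 183.05 Mb lie outside this rule and were named after their values were seen. Members and measures were chosen with earlier results of these data known. Alternatives left out TADs under 150 kb or changed the summary, span, thresholds or chromosomes compared. The contact map and the compartment profile were not used here, and no gene was placed, as the annotation at hand is of another assembly.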

Additional observations from a re-analysis of the deposited data

How the results depend on the processing

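Of 26 alternatives over 11 results, 14 moved the value. Several of these had to move. A changed threshold for large TADs or stretches changes their count almost by definition, and a share was set against a size in another unit. The tally is therefore not a measure of how stable the results are. A change of at most 1 bin (50 kb) in a size or a difference of sizes did not count as moved. Most of the results are sizes, counts or shares, which have no direction that could turn. The correlation of neighbouring sizes changed sign, from −0.003 for adjoining pairs to 0.001 over all neighbouring pairs, and did not count as moved. Nor did boundaries, at 2.19 per Mb without TADs under 150 kb. With TADs under 150 kb left out (289 remain), the median TAD of GGA1 was 350 kb, 78.3% of the span lay inside TADs and 51.4% of pairs adjoined, since removing TADs opens gaps. The mean size was 409 kb and the length-weighted median 600 kb. Without the 2 TADs of over 5 Mb, an alternative chosen after seeing the data, the mean was 379 kb. The share of the span in TADs of at least 1 Mb was then 23.3%, against 29.8% with them, where the span still included their length. Without the largest TAD, also chosen after seeing the data, 26.5% of the whole length of the rearranged segment lay in such TADs, against 76.9% with it. Of the 6.78 Mb of the segment outside the largest TAD, 53.4% lay in such TADs. Counting stretches from 200 kb gave 61 in place of 128. Large TADs numbered 49 from 750 kb and 10 from 2 Mb. Boundaries were 1.42 per Mb when only positions between TADs at most 50 kb apart counted. GGA1 exceeded the middle value of the 25 other chromosomes, each counted once, by 101 kb in mean size and by 50 kb in median. Its mean was 409 kb, against a middle value of 308 kb and a highest of 390 kb on GGA3. The difference in medians was 75 kb without TADs under 150 kb and 0 kb against the middle value of GGA2 to GGA5. It was thus not seen among the longest chromosomes. The rearranged segment exceeded the rest of GGA1 by 14.7 percentage points in the share inside TADs, a measure that stands in for the difference of 50 kb in median size, which was 100 kb without TADs under 150 kb.

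Leaving out a replicate was not run: the list was called on pooled contacts. No paired analysis was possible because the list holds no value per replicate. The depth behind a TAD is unknown, and the bin of 50 kb limits each border. Whether γ moved the size of TADs between chromosomes was not tested.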
